A study of Mus musculus with 6 samples.

Results

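The genes described here run the glutathione, peroxiredoxin and thioredoxin systems of the cell, together with superoxide dismutases, catalase and 2 stress-response enzymes. They were chosen by gene symbol alone: the alpha, kappa, mu, omega, pi, theta and zeta glutathione transferases (Gst genes), all Gpx, Prdx and Txnrd genes, and Mgst1 to Mgst3, Txn1, Txn2, Gclc, Gclm, Gss, Cat, Sod1 to Sod3, Nqo1 and Hmox1. The rule found 54 of 28891 gene names on the array, measured by 92 of 45281 probes. Of these, 46 lay above background on at least 3 of 6 arrays and were tested. The 8 that did not included Gpx5, Gpx6, Gstm3, Gstt1, Gstt4 and Sod3, the secreted superoxide dismutase. The glutathione reductase gene Gsr, also sought by the rule, matched no symbol and was not analysed here.

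The study set luminal uterine epithelium of mice with a conditional knockout of Alk3 (CKO) against Control at 3.5 days post coitum, with 3 arrays per group on 1 Illumina bead chip. Alk3, also called Bmpr1a, encodes a receptor for bone morphogenetic proteins (BMPs). CKO females were Alk3 flox/flox Pgr cre/+. The loxP sites flank exon 2, and Cre comes from the progesterone receptor locus, so deletion follows wherever Pgr is expressed and is not limited to epithelium. The labels call the other group "Control" without giving its Alk3 or Pgr alleles, and both groups had a hybrid C57BL/6J and 129S5/SvEvBrd background. RNA came from frozen, homogenised tissue, and the isolation of the epithelium is not described. Nothing in the labels ties the arrays to different animals, and p-values here cover the spread between the samples, which may be technical. Arrays A to C held Control and arrays D to F held CKO in that chip order, so chip position and group cannot be told apart.

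Glutathione is a small thiol that is built in 2 steps, by the glutamate-cysteine ligase (Gclc with its modifier Gclm) and then by Gss. Glutathione peroxidases use it to reduce peroxides, and glutathione transferases couple it to reactive compounds. Peroxiredoxins reduce peroxides through thioredoxin, which thioredoxin reductases recharge with NADPH. Several of these genes are well-known targets of the transcription factor NRF2, which binds antioxidant response elements, and Gpx2 is known as an epithelial form of glutathione peroxidase.

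Probe intensities were corrected for background, normalised between arrays and put on the log2 scale, where 1 unit is a 2-fold change. Raw medians ran from 79.7 to 87.6 and probes above background from 16620 to 17536 per array. Array E stood apart, with a mean correlation with the other arrays of 0.936, against 0.953 to 0.970 for the rest. Across all 11940 genes tested by limma with Benjamini-Hochberg adjustment, 2 (0.0168%) were higher in CKO at an adjusted p under 0.05 and 0 (0%) were lower. The 2 were Cops8 and Gin1, which are outside the redox genes and are named because of that count. At an unadjusted p under 0.05 there were 563 genes (4.72%). The brighter Bmpr1a probe read 9.19 ± 0.20 (SD, n = 3) in Control and 8.60 ± 0.31 (SD, n = 3) in CKO, and did not overlap between groups. Its exact two-sided permutation p was 0.1, the smallest that 3 against 3 arrays allow, and that of the second probe was 0.3. The files do not place either probe relative to exon 2. Of 10 luminal epithelial markers, 8 were measured, among them Krt8 at 13.0 to 13.5, Krt18 at 11.7 to 12.3 and Cdh1 at 11.0 to 11.7, while Epcam and Calb1 were below background on every array.

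No redox gene passed the test between CKO and Control. The smallest adjusted p among the 46 was 0.976 (limma, Benjamini-Hochberg over all genes). Measured differences, always CKO minus Control, ran from -1.25 for Gstm7 to 1.05 for Gpx2. They were positive for 16 genes and negative for 30 (65.2%), against 51.7% negative over all genes tested. The median difference was -0.06 over the redox genes and -0.01 over all genes. Without array E the split was 19 positive and 27 negative (58.7%), against 47.5% negative over all genes tested.

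Groups that did not overlap were found for 5 of the 46 genes (10.9%), while 10.6% of all genes tested had non-overlapping groups. All 5 were lower in CKO: Gstk1, Prdx4, Mgst3, Gpx4 and Gstt2. Of all genes tested, 5.01% did not overlap and were lower, and 5.64% did not overlap and were higher. An unadjusted p under 0.05 was reached by 2 of 46 genes (4.35%), near the 4.72% of all genes, and both were lower in CKO. Over all genes, 2% reached it with a lower and 2.71% with a higher signal in CKO. Counted in either direction, the redox genes lay close to the array as a whole.

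**Figure D1:**
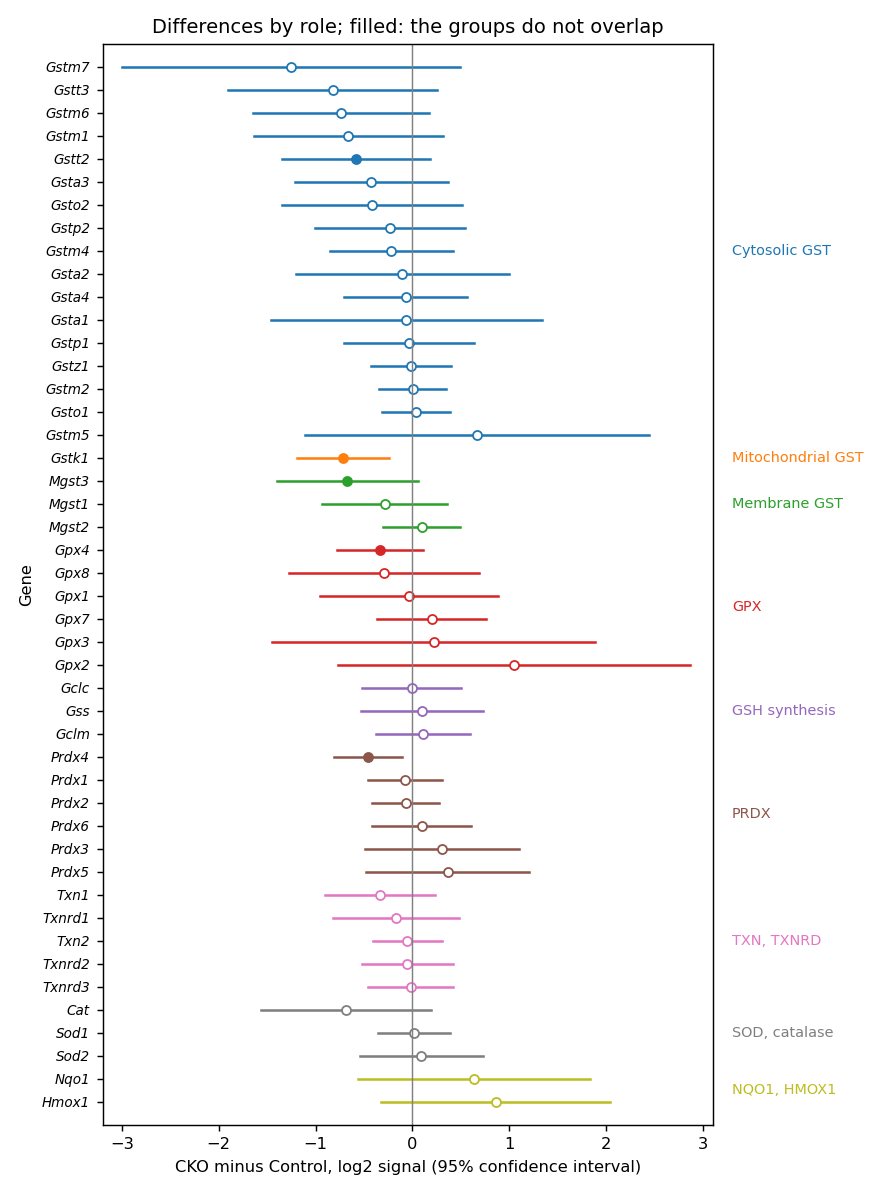
Difference of each of the 46 redox genes between CKO and Control (horizontal axis, log2 signal, CKO minus Control) with its 95% confidence interval from the limma fit, ordered and coloured by role. Filled points mark the 5 genes whose groups did not overlap; all 5 lie left of 0, and the intervals of Gstk1 and Prdx4 are the ones that leave out 0.

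Many redox genes varied widely between arrays. The highest and lowest array differed by over 2-fold for 22 of the 46 genes (47.8%), against 36.8% of all genes tested. The median range over the 6 arrays was 0.95 for redox genes and 0.81 for all genes. The median standard deviation was 0.29 within Control and 0.42 within CKO for the redox genes, and 0.22 and 0.31 for all genes. CKO had the larger standard deviation for 65.2% of the redox genes and 66.4% of all genes, so the wider CKO spread was not limited to them.

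**Figure D2:**
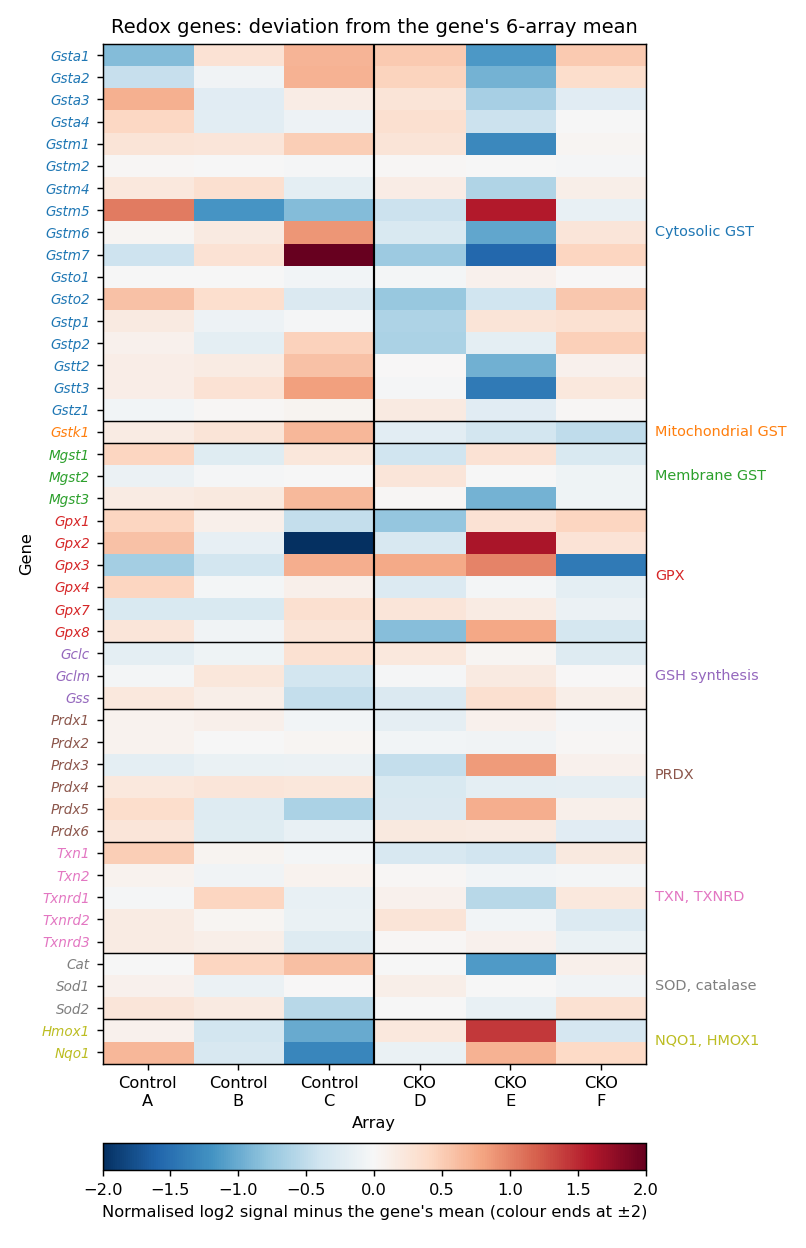
Normalised log2 signal of the 46 redox genes (rows, grouped by role) on the 6 arrays (columns, Control A to C and CKO D to F), each as the deviation from the gene's mean over the arrays; red is above and blue below that mean. Array E shows deep red for Gpx2, Gstm5 and Hmox1 and deep blue for Gstt3, Gstm1 and Cat, and array C shows deep red for Gstm7 and deep blue for Gpx2.

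Array E carried much of that spread. A gene was counted as apart on an array when it lay outside all 5 other arrays and over 2-fold from their mean. On array E this held for 14 redox genes (30.4%), against 12.2% of all genes tested. The 5 that were high on E were Gpx2, Gpx3, Gstm5, Hmox1 and Prdx3. The 9 that were low were Cat, Gsta1, Gsta2, Gstm1, Gstm6, Gstm7, Gstt2, Gstt3 and Mgst3. On Control array C the share was 10.9% of redox genes and 7.04% of all genes, with Gstm6 and Gstm7 high and Gpx2, Hmox1 and Nqo1 low. Array A had 0 such genes, and B, D and F had 1 each.

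**Figure D3:**
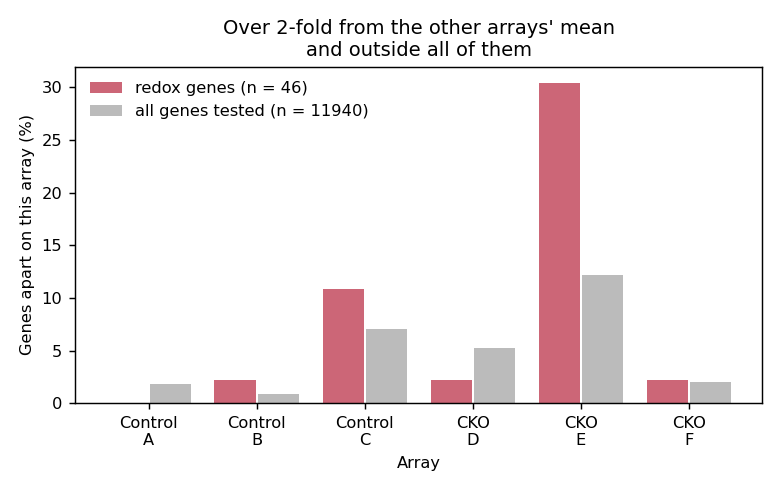
Share of genes (vertical axis, percent) that lay outside the other 5 arrays and over 2-fold from their mean, by array, for the 46 redox genes (red) and all 11940 genes tested (grey). Array E has the tallest bars, at 30.4% and 12.2%.

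Cytosolic glutathione transferases were the largest group, with 20 genes, of which 17 were tested. The measured difference was negative for 14 and positive for 3, with a median of -0.22, and none passed the test. Counting Gstk1 and the membrane transferases as well, 17 of 21 transferases had a negative difference and 4 a positive one. Without array E that count was 12 negative and 9 positive, when 47.5% of all genes tested were negative. The size of the split thus depended on this array.

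Genes of the mu class lie side by side on mouse chromosome 3 in the order Gstm5, Gstm7, Gstm6, Gstm3, Gstm2, Gstm1 and Gstm4, with pseudogenes between some of them (RefSeq, GRCm38.p6). Mu transferases are close copies of each other, so probes may cross-hybridise and single-gene values here are uncertain. Gstm7 read 9.83, 10.55 and 12.25 on Control arrays A, B and C, and 9.52, 8.67 and 10.68 on CKO arrays D, E and F. Array C was far above all others and E below them, and the groups overlapped. The difference was -1.25 (SE 0.73, 95% interval -3.00 to 0.50), -0.57 without array C and -1.77 without array A. Gstm6 read 8.53, 8.67 and 9.37 in Control and 8.18, 7.44 and 8.73 in CKO. As for Gstm7, C was the highest array and E the lowest. Its difference was -0.74 (SE 0.38), -0.40 without E and -1.05 without F. All 3 Gstm6 probes above background gave a negative difference, from -0.76 to -0.55.

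Gstm5 ran the other way. It read 11.22, 9.01 and 9.31 in Control and 9.75, 11.77 and 10.03 in CKO. Array E was the highest and A the next, while B and C were the lowest. The difference was 0.67 (SE 0.74, 95% interval -1.11 to 2.45) and came to 0.05 without E and 1.36 without A. Gstm5 and Gstm7, which only a pseudogene separates on the chromosome, thus had their highest signals on different arrays.

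Gstm1 and Gstm2 were among the brightest redox probes. Gstm1 read 13.99, 13.97 and 14.22 in Control and 13.99, 12.44 and 13.77 in CKO. Array E stood well below the other 5, and the difference of -0.66 (SE 0.41) came to -0.18 without it and -0.96 without D. The brightest Gstm2 probe read 14.54, 14.52 and 14.51 in Control and 14.55, 14.52 and 14.51 in CKO, a range of 0.04. Its raw intensities ran from 22196.7 to 24696.7, and whether so bright a probe can still show a difference was not tested. A second Gstm2 probe read 14.51, 14.68 and 14.79 in Control and 14.81, 13.55 and 14.75 in CKO, with E low as for Gstm1. Another gave 0.10, with groups that did not overlap. Probes for this gene therefore disagreed, and its direction turned under other settings. Gstm4 gave -0.22 (SE 0.27).

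Both tested theta transferases, which act on small halogenated compounds among others, had negative differences. Gstt3, singled out after its values were seen, read 10.05, 10.20 and 10.74 in Control and 9.90, 8.50 and 10.12 in CKO. E was again the lowest array, D lay just under the Control arrays, and F lay among them. The difference was -0.82 (SE 0.45), -0.32 without E and -1.13 without F. Gstt2, also named for its values, read 8.45, 8.49 and 8.91 in Control and 8.33, 7.36 and 8.41 in CKO. Its groups did not overlap, but F lay only just under array A. The difference was -0.58 (SE 0.32), -0.25 without E and -0.77 without F.

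The other cytosolic transferases gave smaller values. Gsto1, an omega transferase and the brightest redox probe, read 14.72, 14.72 and 14.68 in Control and 14.69, 14.81 and 14.73 in CKO, a range of 0.13. With raw intensities from 25898.3 to 28948.9, whether it can still show a difference was not tested either. Gstp1, the pi transferase, differed by -0.04 (SE 0.28) and its near copy Gstp2 by -0.23 (SE 0.32). The alpha genes Gsta1, Gsta2, Gsta3 and Gsta4 gave -0.07, -0.10, -0.42 and -0.07. The Gsta3 value was -0.17 without A, -0.20 without E, -0.64 without B and -0.66 without D. Gsta1 and Gsta2, near copies of each other, were above background on 2 arrays of each group and low on A and E. Gsto2 gave -0.41 (-0.14 without D, -0.79 without F, and 0.25 by a second probe). Gstz1, which acts in tyrosine breakdown, gave -0.02.

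Gstk1, the kappa transferase of mitochondria and peroxisomes, had the smallest p of the redox genes. It read 7.53, 7.63 and 8.04 in Control and 7.16, 7.01 and 6.87 in CKO. Every CKO array lay below every Control array. The difference was -0.72 (SE 0.20, 95% interval -1.19 to -0.24), a 1.64-fold lower signal, with an adjusted p of 0.976 by limma. It lay between -0.79 and -0.48 when any 1 array was left out, and its unadjusted p no longer passed 0.05 without A or without B. A second Gstk1 probe of like brightness read 7.16, 7.39 and 8.15 in Control and 7.24, 7.35 and 6.93 in CKO. Its difference was -0.39 with groups that overlapped. With the mean of both probes the Gstk1 groups did not overlap, but the unadjusted p (limma) was not under 0.05.

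Membrane transferases of the MAPEG family gave mixed values. Mgst3 read 8.48, 8.51 and 8.97 in Control and 8.34, 7.37 and 8.24 in CKO. All CKO arrays were lower, E by the most. The difference was -0.67 (SE 0.31, 95% interval -1.40 to 0.06), -0.37 without E and -0.85 without D. Its second probe gave -0.63 with overlapping groups. Mgst1 had probes that differed in size: the brighter gave -0.28 (SE 0.27) with overlapping groups, -0.14 without A and -0.50 without E. The second, named after its values were seen, read 11.23, 10.97 and 10.15 in Control and 9.02, 9.77 and 9.75 in CKO, a difference of -1.27 with no overlap. With the mean of both probes the Mgst1 difference was -0.78 and its unadjusted p was under 0.05. Mgst2 was above background on 1 Control and 3 CKO arrays and gave 0.09 (SE 0.16).

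**Figure D4:**
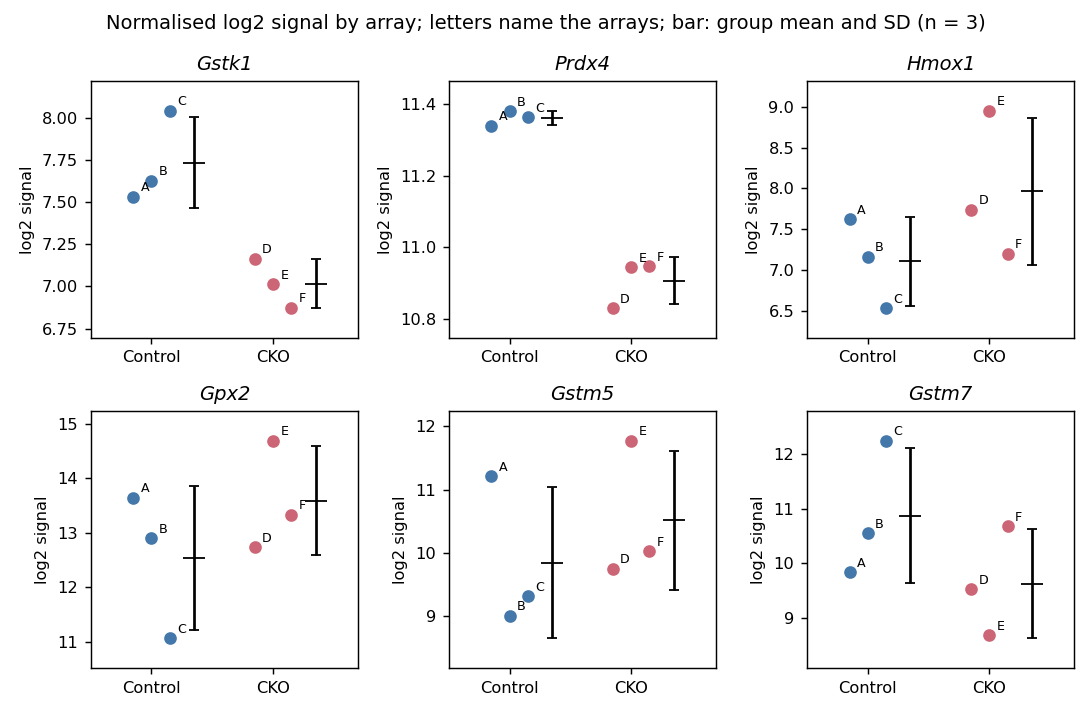
Normalised log2 signal of Gstk1, Prdx4, Hmox1, Gpx2, Gstm5 and Gstm7 on each array (points, with the array's letter), with group means and standard deviations (n = 3) as black bars; each panel has its own vertical axis. Gstk1 and Prdx4 separate the groups, while Gpx2 and Gstm5 are highest on E and Gstm7 is highest on C.

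Glutathione peroxidases split evenly, with 3 of 6 tested genes higher and 3 lower by measured difference. Gpx2 had the widest range of all redox genes. It read 13.64, 12.90 and 11.06 in Control and 12.73, 14.69 and 13.33 in CKO, a 12.4-fold span from array C to array E. The raw intensity on E, 26555.8, lay within the range of the Gsto1 probe. Whether so bright a signal can still show a difference was not tested. The groups overlapped, since Control array A exceeded both D and F. The difference was 1.05 (SE 0.76, 95% interval -0.77 to 2.87). It came to 0.31 without C, 0.50 without E and 1.61 without A.

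Gpx1, the broadly expressed cytosolic form, read 14.79, 14.47 and 13.90 in Control and 13.60, 14.66 and 14.79 in CKO. A and F were the highest arrays and C and D the lowest, one of each group at both ends. A and F had the same normalised value, from raw intensities of 29216.6 and 26953.7. Whether signals so bright can still show a difference was not tested here either. The difference was -0.04 (SE 0.38) and its sign turned with other settings. Gpx3, the secreted form, read 5.39, 5.69 and 6.79 in Control and 6.82, 7.05 and 4.65 in CKO. C, D and E were high and F was below background. The difference was 0.22 (SE 0.70), -0.21 without E and 0.98 without F.

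Gpx4, which reduces lipid peroxides in membranes and is named here for its non-overlapping groups, read 12.91, 12.44 and 12.58 in Control and 12.21, 12.43 and 12.29 in CKO. Array E lay only just under array B. The difference was -0.33 (SE 0.19, 95% interval -0.78 to 0.11), -0.20 without array A and -0.44 without array B. A second probe gave -0.50, also without overlap, but the brighter probe's groups overlapped when arrays were normalised by cyclic loess. The peroxidases of the endoplasmic reticulum, Gpx7 and Gpx8, gave 0.20 (SE 0.23) and -0.29 (SE 0.41). Gpx8 was lowest on D and highest on E, and its sign turned without D. Another probe, filed under an older name of Gpx8, gave -0.31 with the same arrays at the ends.

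Promoter sequences are shown for the genes whose signals moved most between arrays, Gstm5, Gpx2 and Gstm7, so that those high on E and the one high on C can be read side by side. All are 5′ to 3′ on the gene's strand from RefSeq (GRCm38.p6) and end where the gene's annotated span begins. Capitals mark a match to the antioxidant response element core TGACNNNGC, searched on both strands.
Gstm5, plus strand, chr3:107895604-107895853: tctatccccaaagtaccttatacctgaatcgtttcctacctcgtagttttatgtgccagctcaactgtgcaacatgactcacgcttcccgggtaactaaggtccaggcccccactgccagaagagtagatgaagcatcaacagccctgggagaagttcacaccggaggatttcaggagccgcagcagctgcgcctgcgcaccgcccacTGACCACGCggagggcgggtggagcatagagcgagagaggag
Gpx2, minus strand, chr12:76795555-76795804: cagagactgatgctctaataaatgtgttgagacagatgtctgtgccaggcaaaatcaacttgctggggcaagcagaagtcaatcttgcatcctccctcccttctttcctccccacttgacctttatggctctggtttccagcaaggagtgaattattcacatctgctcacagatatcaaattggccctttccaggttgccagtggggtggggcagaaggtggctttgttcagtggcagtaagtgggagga
Gstm7, minus strand, chr3:107931878-107932067: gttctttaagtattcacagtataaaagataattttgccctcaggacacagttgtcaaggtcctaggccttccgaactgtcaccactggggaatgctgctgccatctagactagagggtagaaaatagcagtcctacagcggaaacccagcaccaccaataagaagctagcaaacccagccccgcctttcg

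Gstm5 carries 1 match to this core, 42 to 34 bases before its start, while the stretches of Gpx2 and Gstm7 shown hold none. A Gstm7 match does occur in the window of a second annotated start, inside the gene's own span. In the 250 bases before the start, 8 of 46 redox genes with a promoter in the table (17.4%) held the core, against 11.5% of 27025 genes: Gclm, Gsta3, Gstm5, Gstm7, Mgst1, Prdx1, Sod1 and Txnrd1. GGCGCC, a GC-rich element known to be bound by BMP-activated SMAD proteins, was searched likewise and occurred in 5 of 46 (10.9%: Gclm, Gpx4, Gsto2, Prdx2 and Sod1), against 10.8% of all genes. These matches are descriptions of letters in these windows.

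Genes of glutathione synthesis differed little. Gclc, the catalytic subunit of the ligase, gave -0.01 (SE 0.21, 95% interval -0.52 to 0.50) and was dim, above background on 4 arrays. Gclm, its modifier, gave 0.11 (SE 0.20, 95% interval -0.38 to 0.59). Gss gave 0.10 (SE 0.26, 95% interval -0.53 to 0.73) by its brightest probe, and a dimmer one gave 0.61 with groups that did not overlap. Each of these intervals holds 0.

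Peroxiredoxins also split evenly, 3 higher and 3 lower by measured difference. Prdx4, the peroxiredoxin of the endoplasmic reticulum, showed the tightest separation. It read 11.34, 11.38 and 11.36 in Control and 10.83, 10.94 and 10.95 in CKO. Control arrays lay within 0.04 of each other and all CKO arrays were lower. The difference was -0.45 (SE 0.15, 95% interval -0.81 to -0.10), a 1.37-fold lower signal, with an adjusted p of 0.976 by limma. It lay between -0.47 and -0.42 whichever array was left out, though its unadjusted p passed 0.05 neither without B nor without C.

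Prdx3, the mitochondrial form, read 10.48, 10.55 and 10.57 in Control and 10.20, 11.53 and 10.76 in CKO. Only E and F lay above the Control arrays, and D lay below them. The difference was 0.30 (SE 0.33), -0.05 without E and 0.62 without D. Prdx5, found in mitochondria, peroxisomes and cytosol, read 11.85, 11.23 and 10.86 in Control and 11.21, 12.22 and 11.60 in CKO. E and A were the highest arrays, as for Gstm5. The difference was 0.36 (SE 0.35), 0.09 without E and 0.64 without A. A second Prdx5 probe, which varied more between arrays, also gave 0.36.

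The cytosolic peroxiredoxins were bright and flat. Prdx1 read 13.75, 13.79 and 13.63 in Control and 13.50, 13.77 and 13.65 in CKO, a difference of -0.08 (SE 0.16). Prdx2 read 13.34, 13.26 and 13.31 in Control and 13.21, 13.21 and 13.29 in CKO, a difference of -0.07 (SE 0.15). Its groups overlapped within a range of 0.14, while 2 dimmer Prdx2 probes gave -0.74 and -0.44. Prdx6, which also has phospholipase activity, gave 0.09 (SE 0.21) on a dim probe.

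All 5 thioredoxin genes had negative differences, none of which passed the test. Txn1, the cytosolic thioredoxin, gave -0.34 (SE 0.24) and the mitochondrial Txn2 -0.05 (SE 0.15). Reductases Txnrd1 (cytosolic), Txnrd2 (mitochondrial) and Txnrd3 gave -0.17, -0.05 and -0.02.

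Catalase, the peroxisomal peroxide-degrading enzyme, read 6.98, 7.42 and 7.59 in Control and 6.97, 5.86 and 7.09 in CKO. E was far below the others, and D and F lay near or above array A. The Cat difference was -0.69 (SE 0.37), -0.30 without E and -0.91 without F. Superoxide dismutases differed by 0.02 (SE 0.16) for the cytosolic Sod1 and by 0.09 (SE 0.27) for the mitochondrial Sod2.

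Hmox1, which breaks down heme, read 7.62, 7.16 and 6.53 in Control and 7.74, 8.95 and 7.20 in CKO. E was the highest array and C the lowest, and F lay between Control arrays A and B. The difference was 0.86 (SE 0.49, 95% interval -0.32 to 2.04), 0.37 without E and 1.24 without F. Nqo1, a quinone reductase, read 7.63, 6.65 and 5.66 in Control and 6.83, 7.66 and 7.36 in CKO. C was again the lowest array, but A lay level with E. The difference was 0.64 (SE 0.50), 0.14 without C and 1.12 without A. Hmox1 had the smallest p of the genes with a positive difference, and neither gene passed the test.

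For 15 redox genes with several probes above background, the probes gave one sign in 11 (9 negative, 2 positive). They differed in sign for Gstm2, Gsto2, Gstp1 and Prdx6.

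Some cell type markers differed between the same arrays. Glandular epithelial markers, 4 of 6 measured, had mean deviations of 0.77 on A and 1.66 on E but between -1.03 and 0.36 on the other arrays. The 4 did not follow one pattern. Spink1 was highest on A (12.08) and E (11.41) and Prss29 on E (10.53) and A (8.27), while Cxcl15 was highest on B (9.15) and lay at 6.93 on A and 6.90 on E. Ttr was highest on E (6.52) and lowest on A (4.51). The list's mean level ran from 6.30 to 7.95 in Control and from 6.14 to 8.84 in CKO, with Foxa2 and Prss28 above background on at most 2 arrays. Smooth muscle markers, 3 of 7 measured, also had their highest mean deviations on A (1.14) and E (0.75), with -0.92 to 0.12 on the others. Their mean levels ran from 5.70 to 7.67 in Control and from 5.60 to 7.27 in CKO. Acta2 read 10.98 on A and 9.61 on E, and Myl9 6.44 on A and 6.18 on E. Des was highest on E (6.04), but lay lower on A (5.58) than on B (5.79) and D (5.73). Myh11, Tagln and Cnn1 were below background on every array. Gpx2, Gstm5 and Prdx5 were also highest on A and E, and the part of gland and smooth muscle cells in those signals was not tested. Endothelial markers, 6 of 8 measured, had their highest mean deviation on E too, at 1.13. Their mean levels ran from 5.23 to 5.40 in Control and from 4.82 to 6.63 in CKO, while Tie1 stayed below background throughout. Cdh5, Tek, Emcn and Vwf were highest on E, but Kdr was highest on D (5.98, against 5.49 on E). Eng read 5.29 on E and 5.26 on B. The part of endothelial cells in the E values was not tested.

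Stromal markers, 8 of 13 measured, deviated by 1.12 on D and 0.68 on E and by -1.01 on F, with mean levels from 6.49 to 6.83 in Control and from 5.89 to 8.02 in CKO. Gpx3 was likewise high on D and E and lowest on F, but it was also high on C, where these markers deviated by -0.07. The part of stroma in Gpx3 was not tested. Of these markers, Dcn, Lum, Vim, Col6a1 and Thy1 were above background on every array. Vim, Col1a1, Col1a2, Col3a1, Col6a1 and Thy1 were highest on D and E. Dcn ran from 9.50 on F to 12.36 on D, but its 10.73 on E lay below A (11.11) and C (11.20). Lum on E (6.87) lay below C (6.94). Hand2, Hoxa10 and Hoxa11, which mark uterine stroma, were below background on every array. Erythroid markers, 4 of 9 measured, had mean levels from 7.92 to 8.93 in Control and 8.05 to 9.61 in CKO. The globin genes Hba-a1 and Hbb-b1 were highest on F (12.76 and 12.79) and A (12.14 and 12.23) and lowest on C and D, the arrays at the ends for Gpx1 as well. The other measured erythroid markers had other orders: Hbb-b2 was highest on F (6.66) and lowest on E (4.48), and Alas2 was highest on C (6.28) and lowest on E (5.30). Epb42 and Slc4a1 were below background throughout, and the part of red cells in Gpx1 was not tested. In tissue RNA of this kind, fewer cells of a type and less RNA per cell cannot be told apart.

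Other genes of these pathways were described from 8 lists. They held 152 genes, of which 107 were tested. None passed the test, 41 differences were positive and 66 negative, and the median was -0.09. An unadjusted p under 0.05 was reached by 12 genes (11.2%, against 4.72% of all genes tested), 5 higher and 7 lower. Groups did not overlap for 18 (16.8%, against 10.6%), 8 higher and 10 lower. These lists were chosen with earlier results of these data known, so the shares describe them and are no test. From each list the 2 genes with the smallest p are given.

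Regulators of the NRF2 and BACH1 response had 3 positive and 4 negative differences (median -0.04). Bach2, a transcriptional repressor, was below background on all Control arrays, at 4.98, 4.76 and 4.62, and above it on the CKO arrays, at 5.41, 6.46 and 5.04. Its mean signal was at least 1.46-fold higher in CKO (means 4.79 and 5.64), with an adjusted p of 0.976 by limma. The 95% interval of its log2 difference, -0.03 to 1.73, held 0. Bach2 passed the filter through the CKO arrays alone, so the filter favoured its lack of overlap, which is counted above. Nfe2l1, a relative of NRF2, gave 0.36 (SE 0.34), 0.04 without E and 0.64 without F. Other NRF2 targets had 4 positive and 11 negative differences (median -0.11). The ferritin light chain gene Ftl1 read 12.63, 12.73 and 12.94 in Control and 12.37, 12.11 and 12.36 in CKO. All CKO arrays were lower, and the difference was -0.48 (SE 0.17, 95% interval -0.90 to -0.07). The carboxylesterase Ces1d gave -2.14 (SE 1.09), -1.03 without E and -2.81 without A.

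NADPH supply had 5 positive and 6 negative differences (median -0.09). G6pdx, the entry enzyme of the pentose phosphate pathway, read 10.05, 9.76 and 9.80 in Control and 10.30, 10.69 and 10.15 in CKO. All CKO arrays were higher, and the difference was 0.51 (SE 0.20, 95% interval 0.02 to 0.99). Aldh1l1, a folate enzyme that makes NADPH, gave 0.67 (SE 0.29). Glutathione turnover and cysteine supply had 7 positive and 8 negative differences (median -0.11). Cth, which makes cysteine from cystathionine, gave -0.86 (SE 0.33), and Slc25a39, a mitochondrial glutathione carrier, gave 0.39 (SE 0.20).

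Glutaredoxins, thioredoxin-like proteins and repair reductases had 6 positive and 18 negative differences and the lowest median of the lists (-0.24). Ero1b, an oxidase of the endoplasmic reticulum, read 5.81, 5.92 and 5.99 in Control and 5.01, 5.21 and 4.98 in CKO. All CKO arrays were lower, 2 of them below background, and the difference was -0.84 (SE 0.16, 95% interval -1.22 to -0.46). Txndc12, a thioredoxin-like protein of the same compartment, read 9.79, 9.81 and 9.84 in Control and 9.16, 9.16 and 9.35 in CKO. Its groups did not overlap either, and the difference was -0.59 (SE 0.15, 95% interval -0.95 to -0.23).

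Selenoprotein genes had 10 positive and 8 negative differences (median 0.01). Sephs2, which makes the selenium donor, read 6.92, 6.95 and 6.79 in Control and 7.53, 7.30 and 7.34 in CKO, a difference of 0.50 (SE 0.16) with all CKO arrays higher. Secisbp2, which binds the selenocysteine insertion element, gave 0.57 (SE 0.22), also without overlap, 0.37 without A and 0.74 without C. Sources of superoxide and hydrogen peroxide had 3 positive and 4 negative differences (median -0.09). Acox3, a peroxisomal oxidase, gave 0.39 (SE 0.29), 0.16 without D and 0.63 without E. Noxa1, an activator of NADPH oxidase, gave -0.78 (SE 0.74), 0.14 without E and -1.33 without D. Heme and iron handling had 4 positive and 13 negative differences (median -0.09). Besides Ftl1, the transferrin receptor gene Tfrc read 8.43, 7.45 and 6.63 in Control and 8.29, 9.89 and 9.19 in CKO. Control array A lay above CKO array D, so the groups overlapped, and the difference was 1.62 (SE 0.56, 95% interval 0.28 to 2.96).

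**Figure D5:**
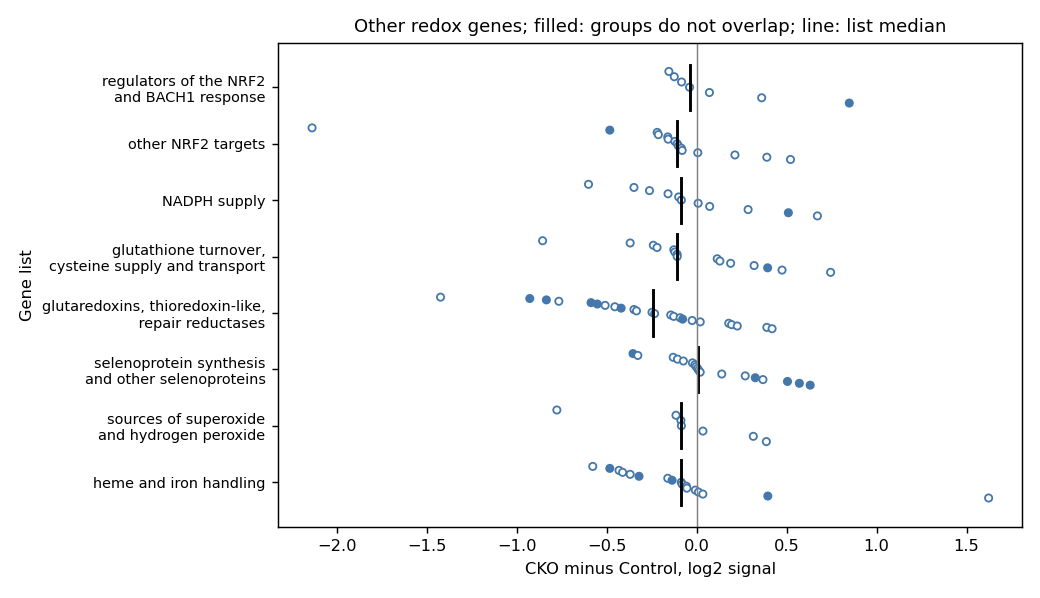
Difference between CKO and Control (horizontal axis, log2 signal) of each tested gene in the 8 lists of related redox genes (rows), with the list median as a black line; filled points mark groups that did not overlap. The glutaredoxin and thioredoxin-like list has the lowest median, at -0.24, and the selenoprotein list sits at 0.01.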

How the data were processed

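Per the file headers, the authors' deposited scanner tables hold, per probe, a mean bead intensity (linear), its detection p-value and a bead count. A deposited table of processed intensity values served as an alternative. The software behind them is not stated in the labels or headers. The neqc function of limma 3.58.1 (R 4.3.3) corrected raw intensities for background (normexp, offset 16, negative controls estimated through detection p), quantile-normalised them and took log2. The offset shrinks fold changes of dim genes. Probes with detection p under 0.05 on at least 3 arrays were kept, and the brightest stood for its gene. Names came from RefSeq (GRCm38.p6) by accession for 29365 probes and by symbol for 6956, and 8960 kept the file's name. Groups were compared with lmFit and eBayes in limma (two-sided), and p-values were adjusted by Benjamini-Hochberg over every gene tested, at 0.05. The code was tested on simulated data. Values on every array are given for redox genes with unadjusted p under 0.05, the 5 with the smallest p in each direction, the 6 brightest and the 5 with the widest range, and others where stated. Members and lists were chosen with earlier results of these data known. Alternatives changed background correction, normalisation, filter, probe rule, variance model, weights or left out 1 array. Some untested genes are not reported by name here.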

Additional observations from a re-analysis of the deposited data

How the results depend on the processing

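The count of redox genes past the test was 0 under all 16 alternatives, and their smallest adjusted p was 0.191, with array weights (limma). The count of all genes higher in CKO was 2. It became 1 with the other normexp setting, no background correction, median scaling, cyclic loess and the authors' deposited values. It fell to 0 with no filter or the strict filter. With array weights it rose to 5 (Arrdc3, Cops8, Erdr1, Gin1 and Thap4, named for that count). With variance trend and robust fitting, Erdr1 passed the test beside Cops8 and Gin1. When 1 array was left out, the count ran from 0 to 1. The median over the redox genes moved from -0.06 to -0.13 with median scaling, which put 61.0% of all genes lower (median -0.08). That setting gave 10 of 46 redox genes without overlap, all lower in CKO. Of all genes, 12.4% did not overlap in either direction, and 8.76% did not overlap and were lower. Of 29 redox genes checked, 20 kept their sign throughout. With array weights, differences turned to 0.21 for Gpx1, -0.69 for Gpx3, 0.19 for Gsta1, 0.27 for Gsta2, 0.023 for Gsto2, 0.36 for Gstp2 and -0.011 for Gstm2. Gstm2 also turned with median scaling (-0.027) and the mean of probes (-0.062), Gpx1 with cyclic loess (0.0029), and Gsta1 (0.039) and Gsta2 (0.026) with the deposited values. Leaving out 1 array gave ranges across 0 for Gpx1 (-0.28 to 0.32), Gpx3 (-0.21 to 0.98), Gpx8 (-0.76 to 0.066), Gsta1 (-0.52 to 0.49), Gsta2 (-0.36 to 0.34), Gstm2 (-0.011 to 0.12), Gstp2 (-0.53 to 0.028), Prdx3 (-0.047 to 0.62) and Noxa1 (-1.33 to 0.14). The causes were not tested. No paired analysis was possible because the groups share no replicate labels. With 3 arrays per group, the number of arrays limits the precision, and genes near background, such as Gclc, Mgst2 and Gsta1, have differences compressed by the offset.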
